A study of Mus musculus with 12 samples.

Results

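The genes of the proteasome, the protease that degrades ubiquitin-tagged proteins, were followed in RNA sequencing libraries of sorted mouse thymic CD4+ T cells. Members were all genes whose symbol begins with Psma, Psmb, Psmc, Psmd, Psme, Psmf or Psmg: 49 of the 13207 genes in the deposited data. They comprise subunits of the core particle, of the regulatory particle that caps it, alternative activators, an inhibitor and assembly factors. Psmc3ip carries a matching symbol but encodes a partner of meiotic recombinases, not a proteasome subunit. Of the 49, 48 were present in both deposited tables and passed the filter on low values. Psma8, the alpha subunit of testis, was listed for newly generated Treg cells alone and was not tested, with log2 CPM (log2 of reads per gene relative to library size) of -3.37, -0.30 and -2.23 in the CD73+ libraries and -4.81, -3.53 and -2.14 in the CD73- libraries. Psmb11, the catalytic subunit of thymic cortical epithelium, was not analysed here.

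The study used a time stamp to ask how thymic regulatory T cells (Treg) arise. C57BL/6 mice were given 10 µg of tamoxifen per g of body weight, which switched on tdTomato in a cohort of cells, and thymocytes were sorted 7 days later, with green fluorescent protein (GFP) reporting the Treg transcription factor Foxp3. The 4 sorted CD4+ groups were CD73+ newly generated Treg (tdTomato+ GFP+ CD73+), CD73- newly generated Treg (tdTomato+ GFP+ CD73-), tdTomato- Treg (tdTomato- GFP+, not divided by CD73) and newly generated conventional T cells (Tconv; tdTomato+ GFP- CD73-), with 3 libraries each, named A, B and D after their titles. All 4 groups came from mice that had been given tamoxifen. Neither the promoter behind the time stamp nor the use of separate animals is given in the labels; a p-value here sets a difference against the scatter of libraries, part of which may be technical. The tdTomato- Treg and the Tconv differ in lineage, in time stamp and in CD73 gate, and effects of these cannot be told apart.

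The proteasome core is a barrel in which rings of alpha subunits close the ends and rings of beta subunits line the chamber. Peptide bonds are cut by Psmb5 (chymotrypsin-like), Psmb6 (caspase-like) and Psmb7 (trypsin-like). Interferon gamma induces Psmb8, Psmb9 and Psmb10, which replace them in the immunoproteasome, the form that haematopoietic cells hold in abundance and that shapes peptides for MHC class I presentation. The regulatory particle holds ATPases (Psmc genes), which unfold substrates, and further subunits (Psmd genes), which bind and remove ubiquitin.

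Levels of Foxp3 and Cd4 matched the sort. Foxp3 lay between 9.07 and 9.25 log2 CPM in the 9 Treg libraries and between -0.77 and 0.88 in the Tconv libraries, and Cd4 was at 8.33 or more in all 12. Nt5e, which encodes CD73, lay between 7.2 and 7.45 in CD73+ and between 5.37 and 5.71 in CD73- newly generated Treg. Its transcript was thus lower in the CD73- Treg but not absent. Nt5e lay between 8.19 and 8.24 in tdTomato- Treg and between 3.69 and 3.99 in Tconv. The effective depth was 11000000 to 21400000 counts, so that 3 counts in a library correspond to a log2 CPM of -2.61 to -1.65. A single gene, Lars2, accounted for 16.1 to 32.4% of all CPM in a library. Tconv library B stood apart from Tconv A and D: the mean squared difference between libraries, over the variance expected from counting, was 96.4 and 111.0 for its pairs, against 4.46 for A with D. The next highest value within a group was 30.4, for CD73- libraries A and B. Values without Tconv library B or CD73- library B are given below where they change a call or a sign or move a printed value by over 1.5 times.

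Every tested member other than Psmc3ip was at a log2 CPM of 1.98 or more in each of the 12 libraries. Per kb of transcript, and averaged over the 12 libraries, Psme1, the alpha subunit of the interferon-inducible ring activator, had the highest level at 119.0 CPM per kb, and Psmb8 came next with 81.1 CPM per kb. Psme2, the partner of Psme1, had 66.6 CPM per kb and its near copy Psme2b 43.0. Reads cannot be assigned between these 2 genes with certainty, so their places in the order are uncertain. The 7 tested alpha ring genes spanned 18.1 (Psma3) to 48.7 (Psma7) CPM per kb, and the ATPases 19.7 (Psmc6) to 31.9 (Psmc3). Chaperones of assembly, which are not part of the finished particle, were lower: Psmg1 to Psmg4 lay between 6.35 and 10.1 CPM per kb, and the base chaperones Psmd5, Psmd9 and Psmd10 between 6.5 and 7.09. The length used is that of the principal transcript in the annotation, and the order of neighbours depends on it.

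**Figure D1:**
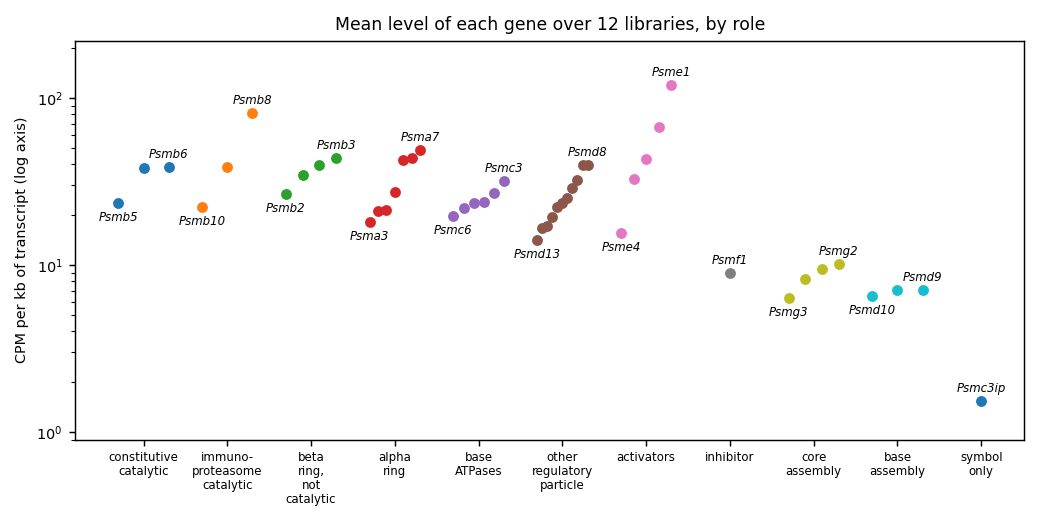
Each point is 1 of 48 genes (Psma8 is not drawn), plotted as its mean CPM per kb of principal transcript over 12 libraries (log axis) and grouped by role, with the lowest and highest gene of each role named. Psme1 (119.0) and Psmb8 (81.1) lie above the other genes, and the assembly factors and Psmf1 lie at or below 10.1 CPM per kb. Psme2 and Psme2b are plotted apart, although reads cannot be assigned between them with certainty.

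As a share of the summed CPM without Lars2, the members (49 in the table of newly generated Treg, 48 in the other) together held 0.296 ± 0.00749% in CD73+ and 0.281 ± 0.0107% in CD73- newly generated Treg, and 0.293 ± 0.0067% in tdTomato- Treg and 0.306 ± 0.0121% in Tconv (SD, n = 3 each). The libraries of CD73+ Treg (0.287 to 0.302%) overlapped those of CD73- Treg (0.270 to 0.291%), and the libraries of tdTomato- Treg (0.289 to 0.301%) overlapped those of Tconv (0.298 to 0.320%). No test was made of these shares. In bulk samples, a change in the number of cells of a type and a change in RNA per cell cannot be told apart.

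The catalytic subunits of the immunoproteasome were expressed in both lineages. Of the 3, Psmb9 alone passed a test, in tdTomato- Treg against Tconv, where 52.1% of all genes passed. None passed for CD73+ against CD73- Treg, where 2.47% of all genes did. Psmb8, on chromosome 17 (34197721 to 34201454 in mm10), had log2 CPM values of 7.09, 7.06 and 7.06 in CD73+ and 7.05, 6.98 and 7.02 in CD73- newly generated Treg, and of 7.03, 7.15 and 7.09 in tdTomato- Treg and 6.93, 7.09 and 6.98 in Tconv. The CD73+ libraries all lay above the CD73- libraries, by a margin that did not pass the test (log2 fold change 0.05, SE 0.05, 95% interval -0.06 to 0.17, limma adjusted p = 0.657). The tdTomato- Treg and Tconv libraries overlapped (0.09, SE 0.05, interval -0.02 to 0.20, adjusted p = 0.171). Without Tconv library B, this difference of Psmb8 was 0.14 with an adjusted p of 0.046, and without CD73- library B the one within newly generated Treg was 0.04 (adjusted p = 0.8).

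Psmb9 lies near Psmb8 in the MHC region (chromosome 17, 34181987 to 34187764). It had log2 CPM values of 5.69, 5.86 and 5.69 in tdTomato- Treg, all above the 5.58, 5.53 and 5.55 of Tconv (log2 fold change 0.19, SE 0.08, adjusted p = 0.0428). This call was lost when any single library of the comparison other than tdTomato- Treg D was left out, with adjusted p values of 0.0515 (without tdTomato- Treg A), 0.198 (tdTomato- Treg B), 0.0649 (Tconv A), 0.0922 (Tconv B) and 0.0871 (Tconv D). It was also lost when libraries were centred on the median gene (0.0963) or quantile-normalised (0.0634), without the intensity trend (0.0658) and without the 4 libraries of letter D (0.0905). In newly generated Treg, Psmb9 was at 5.71, 5.54 and 5.83 in the CD73+ libraries and 5.76, 5.84 and 5.85 in the CD73- libraries, which overlapped (-0.12, SE 0.08, adjusted p = 0.431). The log2 fold changes of the 2 comparisons differed by -0.32 (SE 0.11, adjusted p = 0.0295). Psmb9 was 1 of 2 members, of the 11 whose difference passed, for which the fold change within newly generated Treg was the lower one.

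Psmb10 had the widest spread of the 3 immunoproteasome subunits. It was at 5.03, 4.89 and 4.91 in CD73+ libraries, all above the 4.77, 4.47 and 4.73 of CD73- libraries (log2 fold change 0.29, SE 0.12, interval 0.03 to 0.54), but did not pass the adjusted threshold (adjusted p = 0.228). Without CD73- library B, the difference was 0.19 (adjusted p = 0.426). In tdTomato- Treg it was at 4.93, 5.02 and 5.02, and in Tconv at 4.93, 4.48 and 5.02, so that Tconv library B alone was low. The log2 fold change of 0.18 (SE 0.12, adjusted p = 0.226) came to 0.02 without that library (adjusted p = 0.92).

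Of the constitutive catalytic subunits, none passed the test in either comparison. Of all genes, 2.47% passed for CD73+ against CD73- Treg and 52.1% for tdTomato- Treg against Tconv. Psmb5 was at 4.39, 4.67 and 4.48 in CD73+ and 4.39, 4.40 and 4.10 in CD73- libraries (log2 fold change 0.22, SE 0.12, adjusted p = 0.363), and at 4.47, 4.61 and 4.24 in tdTomato- Treg and 4.24, 4.42 and 4.27 in Tconv (0.13, SE 0.12, adjusted p = 0.377). Psmb6 was at 4.94, 5.11 and 4.89 in CD73+ libraries, all above the 4.81, 4.76 and 4.63 of CD73- libraries (0.25, SE 0.09, adjusted p = 0.169). In the other comparison Psmb6 was at 4.89, 5.06 and 4.82 in tdTomato- Treg and 5.06, 5.22 and 5.05 in Tconv, with the opposite sign (-0.19, SE 0.09, adjusted p = 0.0967). Although neither difference of Psmb6 passed alone, the difference between them did (0.43, SE 0.13, adjusted p = 0.0139). Psmb7 had log2 fold changes of -0.02 (adjusted p = 0.906) for CD73+ against CD73- Treg and -0.12 (SE 0.06, adjusted p = 0.125) for tdTomato- Treg against Tconv.

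**Figure D2:**
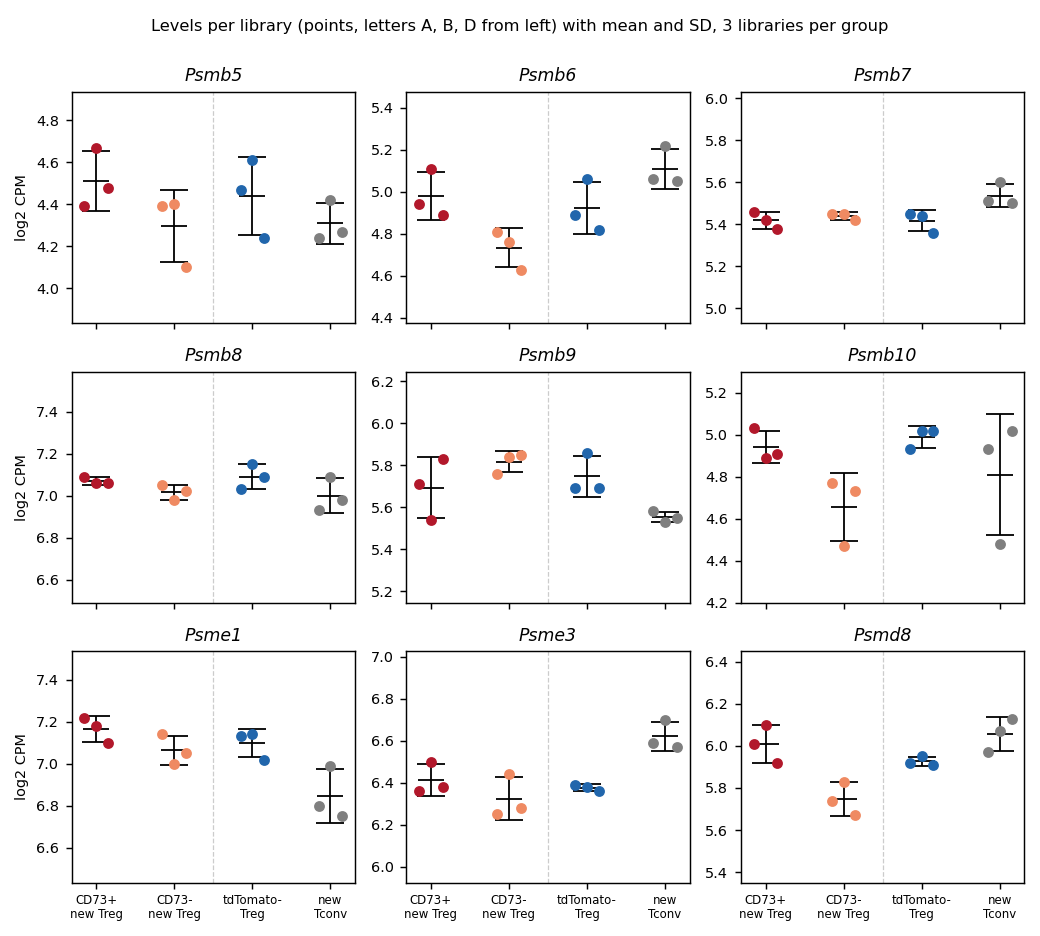
Log2 CPM per library (points) with the mean and SD of 3 libraries for 9 genes, in CD73+ and CD73- newly generated Treg ("new Treg"), tdTomato- Treg and newly generated Tconv ("new Tconv"); every panel spans the same range on the log2 scale, and the dashed line separates the 2 deposited tables. Psme1 is higher and Psme3 lower in all tdTomato- Treg libraries than in all Tconv libraries, and Psmd8 is higher in all CD73+ than in all CD73- libraries.

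A ratio of 2 genes within a library does not depend on how the library was scaled. The log2 ratio of Psmb9 to Psmb6, the subunits that share the caspase-like position, was 0.77, 0.43 and 0.94 in CD73+ libraries, against 0.95, 1.08 and 1.22 in CD73- libraries. In the other table it was 0.80, 0.80 and 0.87 in tdTomato- Treg, against 0.52, 0.31 and 0.50 in Tconv. The ratio was thus lower in every CD73+ than in every CD73- library (difference of means -0.37) and higher in every tdTomato- Treg than in every Tconv library (0.38), each with an exact permutation p of 0.1 (two-sided), the smallest that 3 against 3 libraries allow, and 0.2 after Benjamini-Hochberg adjustment over the 6 ratio tests. With CD73+ and CD73- libraries paired by letter, an exact permutation over the signs of the 3 differences gave p = 0.25, the smallest that 3 pairs allow. With 1 library left out, the first difference was -0.48 to -0.23, the smallest without CD73+ library B, and the second 0.31 to 0.42.

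The other pairs gave ratios of other sizes. The log2 ratio of Psmb8 to Psmb5 averaged 2.56 ± 0.16 in CD73+ and 2.72 ± 0.18 in CD73- newly generated Treg, and 2.65 ± 0.17 in tdTomato- Treg and 2.69 ± 0.02 in Tconv (SD, n = 3 each), with overlapping libraries and exact permutation p of 0.5 and 0.9. Leaving out 1 library gave differences of -0.24 to -0.06 for CD73+ against CD73- Treg and -0.14 to 0.02 for tdTomato- Treg against Tconv. The log2 ratio of Psmb10 to Psmb7 was -0.43, -0.53 and -0.47 in CD73+ libraries, all above the -0.68, -0.98 and -0.69 of CD73- libraries (0.31, exact permutation p = 0.1, adjusted 0.2; 0.25 when paired by letter). It was -0.52, -0.42 and -0.34 in tdTomato- Treg and -0.58, -1.12 and -0.48 in Tconv, which overlapped (0.30, exact permutation p = 0.2, adjusted 0.3), and without Tconv library B the difference was 0.10. Per kb of principal transcript, the inducible subunit made up 76.4 to 78.4% of the Psmb8 and Psmb5 pair, 44.5 to 55.6% of the Psmb9 and Psmb6 pair and 34.0 to 39.7% of the Psmb10 and Psmb7 pair, as group means. These shares depend on the transcript length taken: with the merged length of all annotated exons they were 61.0 to 63.6%, 41.0 to 52.0% and 53.8 to 59.9%.

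**Figure D3:**
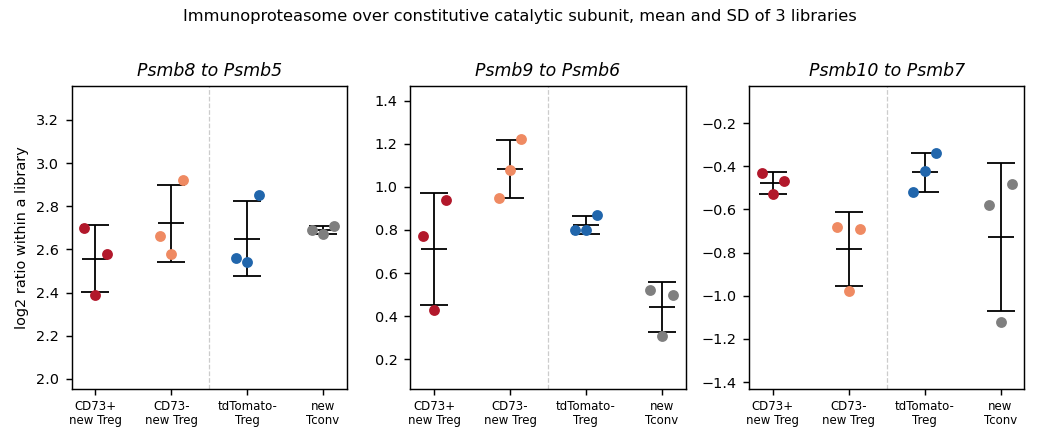
Log2 ratio of the immunoproteasome subunit to the constitutive subunit of the same catalytic position, within each library (points), with the mean and SD of 3 libraries per group; the 3 panels span equal ranges. The Psmb9 to Psmb6 ratio does not overlap between CD73+ and CD73- libraries or between tdTomato- Treg and Tconv libraries, and Tconv library B (the middle point, at -1.12) sets the spread of Psmb10 to Psmb7 in Tconv.

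Levels of markers of other cells that could enter a sort were set beside these values. The summed level of 11 myeloid and dendritic genes was 63.4 to 78.1 CPM in tdTomato- Treg and 33.5 to 37.8 CPM in Tconv. Of the 7 that could be tested, 4 were higher in tdTomato- Treg (Cd74, Cst3, Lyz2 and H2-Aa). Of all genes tested, 26.4% were higher and 25.7% lower in tdTomato- Treg. The sum of 6 B cell genes was 7.89 to 10.3 CPM in tdTomato- Treg and 3.47 to 4.85 CPM in Tconv, with Cd79b higher, while Ms4a1 was at or below a log2 CPM of 0.44 in all 12 libraries. The 8 genes of CD8 and double-positive thymocytes summed to 59.0 to 76.7 CPM in tdTomato- Treg and 47.0 to 50.9 CPM in Tconv. Of the 7 tested, 3 were higher and 1 lower in tdTomato- Treg. The 5 genes of thymic epithelium summed to 14.4 to 16.3 CPM in tdTomato- Treg and 10.6 to 12.5 CPM in Tconv, with Epcam higher and Krt8 at or below -0.55 in all libraries. The same 4 sums were 43.3 to 48.9, 4.02 to 4.82, 35.9 to 43.3 and 11.8 to 16.5 CPM in CD73+ libraries and 33.7 to 54.8, 3.63 to 6.07, 39.1 to 99.5 and 12 to 16.7 CPM in CD73- libraries, the 99.5 being CD73- library B. Of all these markers, Nkg7 was higher and Aqp11 lower in CD73+ Treg, where 1.78% of all genes were higher and 0.689% lower. The part of such cells in the results was not tested.

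Sequences upstream of the catalytic and assembly genes are shown because Psmb5 and Psmb6 hold the core of the antioxidant response element, the site of the NRF1 and NRF2 factors that raise proteasome genes, and because Psmg1 had the largest change of all members that passed a test. They are the RefSeq promoters of GRCm38.p6 read 5′ to 3′ on the strand of the gene, without bases in annotated exons. Capitals mark TGACNNNGC in Psmb5 (chr14:54618023-54618245, minus strand) and Psmb6 (chr11:70525107-70525356, plus strand), and the ETS core CCGGAAG in Psmg1 (chr16:95990961-95991210, minus strand).
Psmb5: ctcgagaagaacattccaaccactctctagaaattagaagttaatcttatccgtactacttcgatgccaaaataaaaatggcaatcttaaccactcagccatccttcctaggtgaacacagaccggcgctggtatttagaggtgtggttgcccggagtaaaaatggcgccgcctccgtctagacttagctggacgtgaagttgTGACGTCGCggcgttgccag
Psmb6: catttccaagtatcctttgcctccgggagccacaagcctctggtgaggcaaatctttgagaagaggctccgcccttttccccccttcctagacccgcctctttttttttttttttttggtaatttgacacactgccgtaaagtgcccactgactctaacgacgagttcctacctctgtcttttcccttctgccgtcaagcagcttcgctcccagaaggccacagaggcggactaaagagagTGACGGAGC
Psmg1: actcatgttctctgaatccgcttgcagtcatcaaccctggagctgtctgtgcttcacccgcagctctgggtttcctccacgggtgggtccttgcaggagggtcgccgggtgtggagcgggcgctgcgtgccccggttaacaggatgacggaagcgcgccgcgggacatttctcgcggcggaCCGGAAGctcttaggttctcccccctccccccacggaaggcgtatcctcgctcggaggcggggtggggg
The marked bases begin 47, 9 and 69 bases before the RefSeq start of the gene; in Psmb5 the 27 bases next to that start lie in an annotated exon and are not printed. A search of the 250 bases before the start, on both strands and in the 41 members with an entry, found TGACNNNGC in 5 (12.2%; 13.9% of 8861 genes tested in the fit and 11.5% of 27025 genes), the interferon-stimulated element core (GAAA, 2 bases of any kind, GAAA) in 3 (7.32%; 3.33% and 3.46%) and the STAT site TTCNNNGAA in 2, Psmb8 and Psmg1 (4.88%; 7.30% and 8.13%). CCAAT was found in 14 (34.1%; 41.4% and 37.5%) and CCGGAAG in 13 (31.7%; 17.1% and 7.83%). Matches describe letters in these windows and not bound sites.

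Within newly generated Treg, 1 of the 48 proteasome genes tested was higher in CD73+ cells and none was lower. This is 2.08% of the members, against 2.47% of all 11170 genes tested (1.78% higher, 0.689% lower), and 4 (8.33%) had an unadjusted p under 0.05, against 17.2% of all genes. With the letter as a replicate block, 5.89% of all genes passed, and still 1 member. The median log2 fold change of the members was 0.07 and that of all genes 0.01. Leaving out Psmc3ip, all lay between -0.22 and 0.29. Without CD73- library B, 5 members changed sign and 19 further ones moved by over 1.5 times, none of them called. The libraries did not overlap for 6 members that were higher, where 10.0% of all genes were so, and for 1 that was lower, where 8.18% were so.

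The 1 call was Psmd8, a subunit of the lid of the regulatory particle (chromosome 7, 29174188 to 29180701). It was at 6.01, 6.10 and 5.92 in CD73+ libraries, all above the 5.74, 5.83 and 5.67 of CD73- libraries (log2 fold change 0.26, SE 0.07, interval 0.12 to 0.41, adjusted p = 0.0492). In both groups library B had the highest and library D the lowest value. The call was lost without CD73- A (adjusted p = 0.105), CD73- D (0.176), CD73+ A (0.138) or CD73+ B (0.199), and was kept without CD73- B (0.0321). These values are from the fit without a block, and with the letter as a replicate block the call was kept. Psmc3ip, at 0.59, 0.10 and 0.64 in CD73+ and 1.29, 1.23 and 0.67 in CD73- libraries, was the lowest tested member and did not pass (-0.62, SE 0.33, adjusted p = 0.357).

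Between tdTomato- Treg and Tconv, proteasome genes moved in both directions and by small amounts: 4 of 48 members were higher and 9 lower in tdTomato- Treg. That is 27.1% of the members, against 52.1% of all 11198 genes tested, of which 26.4% were higher and 25.7% lower. The median log2 fold change was -0.12 for the members and -0.01 for all genes, and the median size without sign 0.18 for the members and 0.29 for all genes. A size of 0.5 or more was reached by 2 members, Psmg1 and Psmc3ip, and by 32.1% of all genes. The libraries did not overlap for 4 members that were higher and 17 that were lower, where 30.5% of all genes were so in each direction. Without Tconv library B, 5 were higher and 6 lower, and without tdTomato- Treg library A, 3 were higher and 5 lower. Without Tconv library B, 2 of the 48 members changed sign and 20 further ones moved by over 1.5 times, among them Psmc3ip (-0.39, against -0.62 with all libraries). The authors' deposited table, which tests the same 2 groups, has 4 members higher and 12 lower at an adjusted p under 0.05, where 50.6% of all its genes pass. For CD73+ against CD73- Treg the authors' deposited table calls no member, where 1.19% of all genes pass.

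Of the 5 activators of the core, Psme1 and Psme2b were called higher and Psme3 lower in tdTomato- Treg. Of all genes, 26.4% were called higher and 25.7% lower in this comparison. Psme1 (chromosome 14, 55578123 to 55581529) was at 7.13, 7.14 and 7.02 in tdTomato- Treg, all above the 6.80, 6.99 and 6.75 of Tconv (log2 fold change 0.25, SE 0.07, adjusted p = 0.00408). Psme3, which forms the nuclear ring activator (chromosome 11, 101316213 to 101323537), was at 6.39, 6.38 and 6.36 in tdTomato- Treg, all below the 6.59, 6.70 and 6.57 of Tconv (-0.24, SE 0.06, adjusted p = 0.00394). Both calls were kept in every alternative run, with adjusted p of at most 0.0312 for Psme1 and 0.0329 for Psme3. Between CD73+ and CD73- newly generated Treg, neither passed (Psme1 0.10, adjusted p = 0.443; Psme3 0.09, adjusted p = 0.497, and 0.15 without CD73- B). For Psme3 the fold changes of the 2 comparisons differed (0.33, SE 0.09, adjusted p = 0.00769), and for Psme1 they were not shown to (-0.15, SE 0.09, adjusted p = 0.235). Without Tconv library B this difference of Psme1 did pass, the fold change within newly generated Treg being the lower one.

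Psme2, which forms the ring activator with Psme1, was at 5.82, 6.15 and 6.18 in tdTomato- Treg and 6.05, 6.13 and 5.96 in Tconv, with a log2 fold change of 0.00 (SE 0.08, interval -0.17 to 0.18, adjusted p = 0.977). Its near copy Psme2b was called higher, at 5.30, 5.23 and 5.48 in tdTomato- Treg, against 5.05, 4.93 and 5.04 in Tconv (0.33, SE 0.10, adjusted p = 0.00817; 0.0527 without tdTomato- Treg D). The annotated transcripts of Psme2 and Psme2b share 789 of 794 aligned bases (99.4%), so reads cannot be assigned between them with certainty, and with their levels summed the pair was not called, which leaves 3 members higher. Psme4, the large nuclear activator (-0.04, SE 0.05, adjusted p = 0.535), and the inhibitor Psmf1 (-0.04, SE 0.10, adjusted p = 0.731) did not pass. Without Tconv B, Psmf1 had -0.13 (adjusted p = 0.284) and Psme2 0.05 (adjusted p = 0.717).

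In the core particle, of 7 alpha ring genes tested, 2 were lower in tdTomato- Treg and none higher (median log2 fold change -0.18), where 25.7% of all genes were lower and 26.4% higher. Psma5 was at 4.36, 4.67 and 4.52 in tdTomato- Treg and 4.87, 4.93 and 4.76 in Tconv (-0.34, SE 0.10, adjusted p = 0.00978; 0.0622 without tdTomato- Treg A). Psma1 was at 4.89, 5.07 and 5.06 in tdTomato- Treg and 5.28, 5.35 and 5.26 in Tconv (-0.29, SE 0.10, adjusted p = 0.0251; 0.0718 without Tconv B and 0.112 without tdTomato- Treg A). For both, every tdTomato- Treg library lay below every Tconv library. Of the 4 beta subunits without catalytic activity, Psmb3 was higher, at 5.08, 5.31 and 5.27 in tdTomato- Treg and 4.92, 4.93 and 4.99 in Tconv (0.27, SE 0.09, adjusted p = 0.0158; 0.0754 without tdTomato- Treg B and 0.0581 without tdTomato- Treg D). The other 3 did not pass with all libraries, and Psmb1 (0.10, adjusted p = 0.382) had 0.20 with an adjusted p of 0.0487 without Tconv B. A difference between the rings was not tested.

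In the regulatory particle, 5 of the 17 genes tested were lower in tdTomato- Treg, a share near the 25.7% of all genes, and none was higher. Among the 6 ATPases this was Psmc5 (chromosome 11, 106256154 to 106263120), at 4.85, 4.81 and 4.95 in tdTomato- Treg and 5.17, 5.32 and 5.10 in Tconv (-0.33, SE 0.09, adjusted p = 0.00696), a call kept in every alternative run (adjusted p of at most 0.0369). Among 11 further subunits 4 passed. Psmd6, a lid subunit, was at 4.79, 4.81 and 4.81 in tdTomato- Treg and 5.0, 5.15 and 5.19 in Tconv (-0.31, SE 0.09, adjusted p = 0.0114). Psmd14, the metalloprotease that removes ubiquitin chains, was at 5.26, 5.43 and 5.34 in tdTomato- Treg and 5.53, 5.70 and 5.65 in Tconv (-0.28, SE 0.09, adjusted p = 0.0145; 0.0524 without Tconv B and 0.066 without tdTomato- Treg A). Psmd1, a large scaffold of the base, was at 5.73, 5.71 and 5.75 in tdTomato- Treg and 5.83, 6.11 and 5.97 in Tconv (-0.24, SE 0.08, adjusted p = 0.0172; 0.0915 without Tconv B and 0.0522 without tdTomato- Treg B). In these 4 genes no tdTomato- Treg library reached a Tconv library. The remaining call was Psmd3, named after its values were seen (-0.19, SE 0.07, adjusted p = 0.0318), which was lost without Tconv A (0.124), Tconv D (0.0621), tdTomato- Treg A (0.0501) or tdTomato- Treg D (0.176).

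Assembly factors of the core held the largest called change. Psmg1, which with Psmg2 forms a dimer that guides alpha ring assembly (chromosome 16, 95979933 to 95990960), was at 3.19, 2.94 and 2.65 in tdTomato- Treg, all below the 3.54, 3.52 and 3.44 of Tconv (log2 fold change -0.57, SE 0.16, interval -0.92 to -0.23, adjusted p = 0.0071). Psmg2 was at 3.37, 3.34 and 3.21 in tdTomato- Treg and 3.65, 3.53 and 3.64 in Tconv, without overlap, and did not pass (-0.30, SE 0.17, adjusted p = 0.153). Psmg3, of the second dimer, likewise did not overlap, at 2.10, 2.23 and 2.23 in tdTomato- Treg and 2.72, 2.37 and 2.56 in Tconv (-0.36, SE 0.17, adjusted p = 0.0857), and its partner Psmg4 did (0.14, SE 0.18, adjusted p = 0.531). Pomp, the maturation factor of the beta ring, which the symbol rule does not take in, averaged 5.35 ± 0.12 in tdTomato- Treg and 5.6 ± 0.10 in Tconv (SD, n = 3 each; -0.25, SE 0.09, adjusted p = 0.0232), a call lost without Tconv B (0.0987), tdTomato- Treg A (0.0755) or tdTomato- Treg D (0.099). Chaperones of the base did not pass: Psmd9 had -0.32 (SE 0.14, adjusted p = 0.062), Psmd10 -0.10 (adjusted p = 0.612) and Psmd5 0.02 (adjusted p = 0.842). Without Tconv B the signs of Psmd10 (0.07) and Psmd5 (-0.02) turned.

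**Figure D4:**
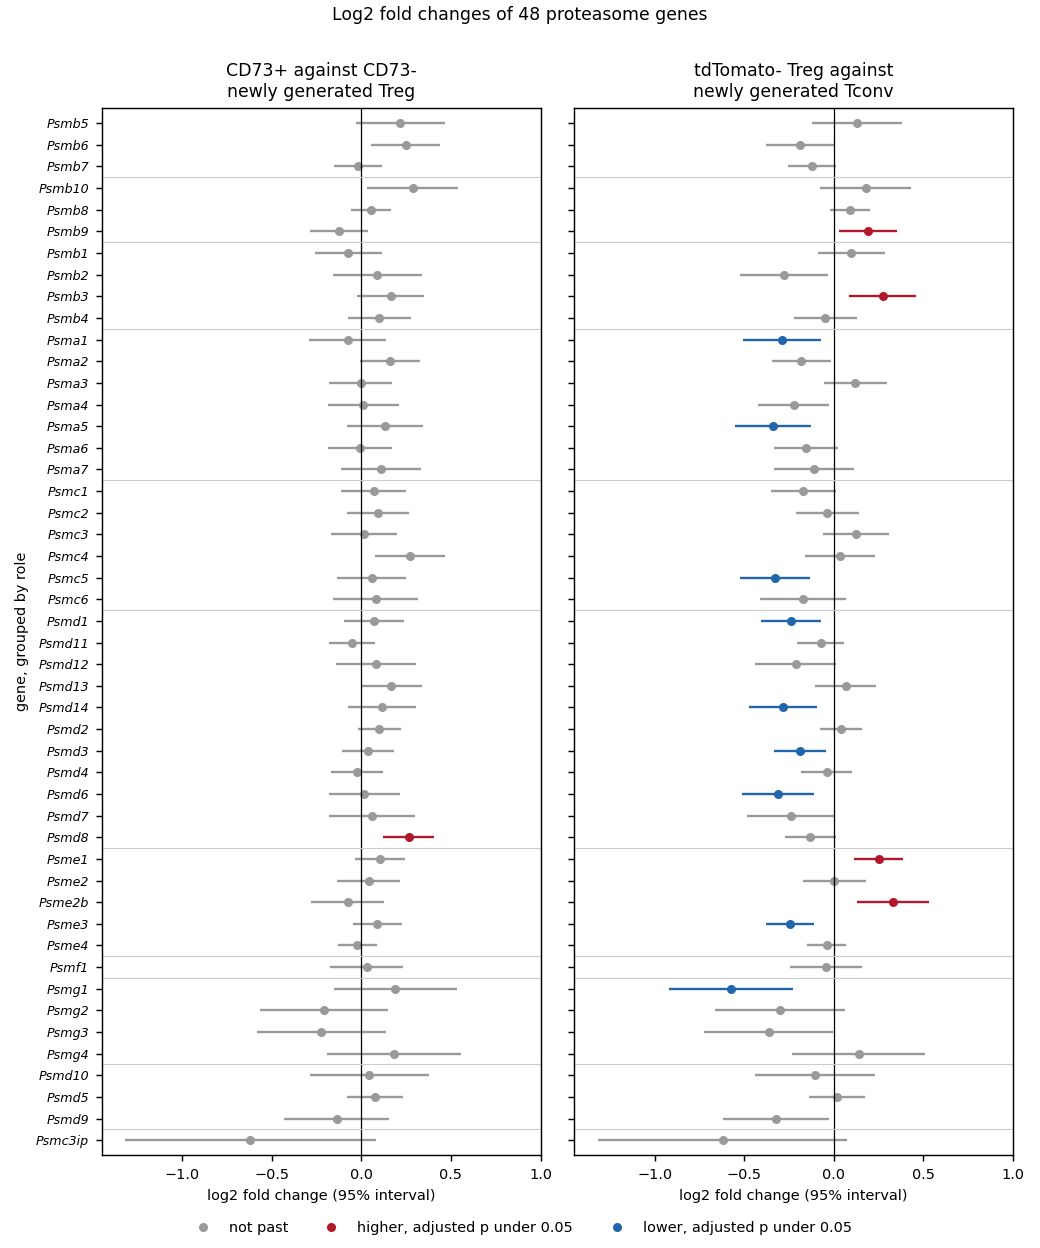
Log2 fold changes (points) and 95% intervals (lines) of the 48 tested members, grouped by role from the constitutive catalytic subunits at the top to Psmc3ip at the bottom, for CD73+ against CD73- newly generated Treg (left) and tdTomato- Treg against newly generated Tconv (right); red and blue mark an adjusted p under 0.05. Psmd8 is the 1 coloured gene on the left, and 4 red and 9 blue genes stand on the right.

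The 2 comparisons share no library, so the difference of their log2 fold changes could be tested within the fit. It passed for 11 of 48 members, 22.9%, against 36.5% of 11167 genes (17.2% higher, 19.2% lower). For 9 of them the fold change within newly generated Treg was the higher one: Psmg1, Psma5, Psmb6, Psmd14, Psmd8, Psmc5, Psma2, Psme3 and Psmd1. Psmg1 had the largest difference (0.76, SE 0.23, adjusted p = 0.0148) and Psmd8 the smallest adjusted p (0.39, SE 0.10, adjusted p = 0.00372). The other 7 had differences of 0.31 to 0.47. Psme2b (-0.41, adjusted p = 0.0257) and Psmb9 (-0.32) went the other way. The reads of Psme2b are uncertain. With libraries left out 1 at a time, the calls of Psmg1, Psmb6, Psmd8 and Psme3 were kept throughout, and each of the other 7 was lost at least once: that of Psmb9 without CD73- D (0.06), CD73+ B (0.0791), Tconv D (0.0517) or tdTomato- Treg B (0.0891), and that of Psme2b without CD73- D (0.0721), CD73+ A (0.0521), CD73+ D (0.0657), Tconv B (0.0534) or tdTomato- Treg D (0.0789). The count was 7 without CD73+ A, and 6 without CD73+ B, CD73- D or tdTomato- Treg A. Without the 4 libraries of letter D, Psmd8 kept its call, while Psmg1 (adjusted p = 0.133), Psme3 (0.0639) and Psmb6 lost theirs.

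**Figure D5:**
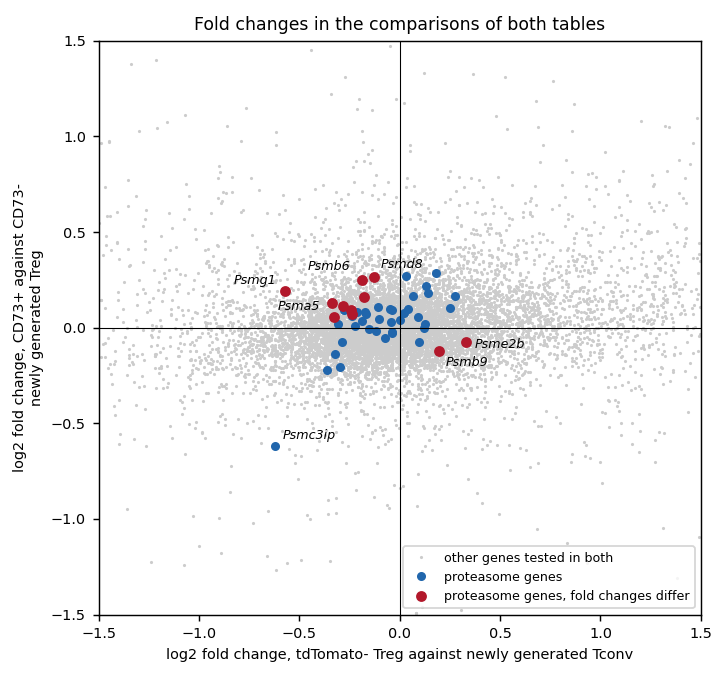
Log2 fold change of each gene in tdTomato- Treg against newly generated Tconv (x) and in CD73+ against CD73- newly generated Treg (y), for the 48 proteasome genes and 9953 other genes tested in both comparisons; 1166 other genes lie beyond the axes and are not drawn. The 11 members whose fold changes differ (red) lie in the upper left, apart from Psmb9 and Psme2b in the lower right.

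Genes that work with the proteasome were set beside it, from lists of general knowledge. For CD73+ against CD73- newly generated Treg none of the 62 genes tested in 5 such lists passed by limma (8 at an unadjusted p under 0.05). Of all genes, 2.47% passed and 17.2% had an unadjusted p under 0.05 in this comparison. For tdTomato- Treg against Tconv, 7 of 12 genes of class I presentation were higher and 3 lower (median log2 fold change 0.29), where 26.4% of all genes were higher and 25.7% lower. The class I heavy chains H2-K1 (0.89, SE 0.07, adjusted p = 7.29e-09) and H2-D1 (0.75, SE 0.06, adjusted p = 2.93e-08), Tapbpl, a peptide editor (0.94, SE 0.08, adjusted p = 5.05e-08), and Nlrc5, the class I transactivator (0.42, SE 0.06, adjusted p = 3.27e-05), were higher. Erap1, the trimming peptidase (-0.52, SE 0.06, adjusted p = 2.95e-06), and the chaperones Canx (-0.28, SE 0.06, adjusted p = 0.00153) and Calr (-0.15, SE 0.05, adjusted p = 0.0196) were lower. The call of Calr was lost without Tconv B (adjusted p = 0.1), tdTomato- Treg A (0.0646) or tdTomato- Treg D (0.0513). Tap1, the peptide transporter whose start lies 225 bases from that of Psmb9 on the other strand, was also higher (0.33, SE 0.06, adjusted p = 0.000231) and was named after its values were seen.

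Of 11 genes of the interferon gamma route, which induces the immunoproteasome, 4 were higher and 3 lower in tdTomato- Treg, where 26.4% of all genes were higher and 25.7% lower. The receptor chain Ifngr1 averaged 7.91 ± 0.02 in tdTomato- Treg and 5.77 ± 0.12 in Tconv (SD, n = 3 each), with a log2 fold change of 2.14 (SE 0.07, adjusted p = 8.15e-14), while the other chain, Ifngr2, was lower (-0.63, SE 0.07, adjusted p = 4.71e-07). Irf8 (2.65, SE 0.10, adjusted p = 1.2e-12), a factor that myeloid cells also express, Socs1 (1.12, SE 0.15, adjusted p = 7.99e-06) and Irf2 (0.18, SE 0.05, adjusted p = 0.0058) were higher. The kinases Jak1 (-0.30, SE 0.04, adjusted p = 1.72e-05) and Jak2 (-0.14, SE 0.06, adjusted p = 0.0396) were lower, and the call of Jak2 was lost without Tconv B (0.179), Tconv D (0.0647), tdTomato- Treg A (0.115) or tdTomato- Treg B (0.124). Irf1, a factor that acts on immunoproteasome genes, did not pass (0.10, adjusted p = 0.241).

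Of 12 tested regulators of proteasome genes, 4 were higher and 4 lower in tdTomato- Treg, where 52.1% of all genes passed. Nfe2l2, which encodes NRF2, averaged 4.53 ± 0.08 in tdTomato- Treg and 5.87 ± 0.11 in Tconv (SD, n = 3 each), a log2 fold change of -1.35 (SE 0.08, adjusted p = 6.73e-10). Its repressors Keap1 (-0.38, SE 0.09, adjusted p = 0.00152) and Bach1 (-0.34, SE 0.07, adjusted p = 0.000338) were lower too. Mafk (-0.50, SE 0.18, adjusted p = 0.0302) was lower and Mafg (0.73, SE 0.14, adjusted p = 0.00031) higher, both being small MAF partners of NRF factors. Stat3 (0.94, SE 0.05, adjusted p = 9.22e-11), Foxo4 (0.40, SE 0.07, adjusted p = 0.000224) and the protease Ddi2, which activates NRF1 (0.12, SE 0.05, adjusted p = 0.0384), were higher. The call of Ddi2 was lost without any 1 library of the comparison (0.0577 to 0.101), and that of Mafk without Tconv A (0.0916), Tconv D (0.126), tdTomato- Treg B (0.113) or tdTomato- Treg D (0.069). Nfe2l1, which encodes NRF1, did not pass (0.07, SE 0.06, adjusted p = 0.387). The 5 members with the NRF site core in the window searched had log2 fold changes of 0.13 (Psmb5), -0.19 (Psmb6), -0.17 (Psmc6), -0.21 (Psmd12) and -0.32 (Psmd9), none of which passed. Without Tconv library B, Psmc6 had -0.06 (limma adjusted p = 0.708) and Psmd12 -0.11 (adjusted p = 0.432).

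Of 10 proteasome partners, 1 was higher and 5 lower in tdTomato- Treg, where 52.1% of all genes passed and 25.7% were lower. Ecpas, a proteasome adaptor and scaffold, was higher (log2 fold change 0.29, SE 0.05, adjusted p = 0.000263). Zfand5, an activator of the regulatory particle (-0.35, SE 0.08, adjusted p = 0.00254), the deubiquitinase Uchl5 (-0.52, SE 0.15, adjusted p = 0.00927) and Sem1, a small lid subunit outside the symbol rule (-0.30, SE 0.11, adjusted p = 0.0331), were lower, as were Pomp and Usp14, the call of Usp14 being lost without any 1 library (0.0506 to 0.137). The call of Uchl5 was lost without Tconv B (0.063), and that of Sem1 without Tconv B (0.117), tdTomato- Treg B (0.0665) or tdTomato- Treg D (0.118). Of 17 genes of ubiquitin and its shuttles, 1 was lower and 2 were higher, Ubqln4 (0.63, SE 0.06, adjusted p = 8.68e-08) and the segregase Vcp (0.24, SE 0.06, adjusted p = 0.00332).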

How the data were processed

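Per the labels' protocols, TRIzol was used for extraction and the KAPA RNA HyperPrep kit for library preparation. STAR, RSEM, limma and mm10 are listed in the submitters' processing notes; versions are not given in the sources used here. Log2 CPM values were deposited by the authors in 2 tables of 6 libraries, filtered and scaled separately, with an offset of 0.5 count read from the values, and, per comparison, log2 fold changes, a p-value and a t statistic (score) per gene; the deposited p-value and score columns entered no test here. Depth was read from the value of genes without counts.

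Members and gene lists were chosen with earlier results of these data known. Log2 values were fitted with limma 3.58.1 (R 4.3.3): 12 libraries, 4 group means, no block, an intensity trend, a filter of log2 CPM 0 or more in 3 or more libraries, two-sided tests, Benjamini-Hochberg adjustment over all genes tested, threshold 0.05. Each log2 fold change was taken within a table, and only the test of their difference used the libraries of both tables. The procedure was tested on simulated data with 100 genes changed at each size. Of log2 changes of 0.25, it recovered 29% for CD73+ against CD73- Treg and 26% for tdTomato- Treg against Tconv. Of changes of 0.5, it recovered 73% and 70%. In tdTomato- Treg against Tconv, 52.1% of all genes passed, and recovery with that many genes changed was not tested. The 26% and 70% therefore hold for few changed genes and do not give the share recovered in that comparison. A change of about 0.25 that did not pass is not shown to be absent. SE and 95% intervals are those of the fit. Counting limits cover counting error only. Lengths and positions are from GENCODE M21 (mm10), the length being that of the longest principal transcript.

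Libraries of the same letter were checked for pairing over 8630 genes by the correlation of deviations from group means. For CD73+ and CD73- Treg these were 0.186 to 0.343, and the letters were taken as pairing them. The main fit nevertheless had no block, and the pairing entered only as an alternative. Named genes are the catalytic subunits, activators, inhibitor and assembly factors, up to 3 called genes per direction of each other role, and up to 4 per direction of each list by p. A few genes of these lists and of the marker lists are not reported here by name. Alternatives were other filters, scalings, offsets and fits, a replicate block, and libraries left out. Summing Psme2 with Psme2b and pairing the ratios of CD73+ and CD73- Treg by letter were chosen after seeing the data.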

Additional observations from a re-analysis of the deposited data

How the results depend on the processing

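No member of any comparison changed direction among called values in the alternatives run. For CD73+ against CD73- Treg the count of 1 fell to 0 when libraries were centred on the median gene, quantile-normalised, fitted without the filter, without the trend or with only the 2 groups compared, and without the 4 libraries of letter D, and was 0 to 1 when 1 library was left out; the replicate block left 1 (Psmd8, adjusted p = 0.0174). For tdTomato- Treg against Tconv, the 13 calls (4 higher, 9 lower) became 6 (1 higher, 5 lower) without letter D, where fewer libraries enter (Psmd6 0.0927 and Psmg1 0.0849 as adjusted p), and 8 to 14 (2 to 5 higher, 5 to 11 lower) when 1 library was left out. Quantile normalisation, which moved the median of all genes to -0.09, gave 15 lower. Over all genes, 2956 were higher and 2877 lower as deposited, 2501 and 3541 after quantile normalisation and 2736 and 3166 after centring; the cause was not tested. Same-letter libraries of these 2 groups correlated at 0.091 to 0.175 and other pairs at -0.155 to 0.036, so each library was most like the one of its own letter, a hint from the data and not the design; since 1 pair was under 0.1, the letter was not taken as pairing them. A replicate block gave 4 higher and 15 lower. The 11 differences between comparisons became 7 without the trend, 3 without letter D and 6 to 13 with 1 library left out. Shares with Lars2 in the sum were 0.208% in CD73+ and 0.208% in CD73- Treg, 0.201% in tdTomato- Treg and 0.234% in Tconv, since that gene enlarges the sum. The median SE of a member was 0.09, which limits the differences that could be resolved, and 3 libraries per group cannot give an exact permutation p below 0.1.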
